A study of Mus musculus with 2 samples.

Results

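Plasmacytoid dendritic cells of mouse lung were taken as the cells with at least 2 unique molecular identifiers (UMIs, 1 for each captured transcript) of Siglech and a UMI of at least 2 of the 6 supporting genes Ccr9, Bst2, Cox6a2, Klk1, Rpgrip1 and Ly6d. Cells with a UMI of Cd79a, Cd3e or C1qa, or with more than 10% of UMIs on mitochondrial (mt-) genes, did not enter. The rule found 102 of 14971 cells (0.681%), of which 62 came from the control library and 40 from the fibrosis library. These 102 cells are called the members. They were selected on the measured counts of Siglech, the 6 supporting genes and the 3 excluding genes, so the levels of those genes describe the choice and support nothing.

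Plasmacytoid dendritic cells are blood-borne dendritic cells that look like small plasma cells and are known for releasing large amounts of type I interferon when viral nucleic acid reaches their endosomes. The endosomal receptors Tlr7 and Tlr9 sense RNA and DNA, the adaptor Myd88 relays the signal, and the interferon regulatory factor Irf7 switches on the interferon genes. The E protein Tcf4 (also called E2-2) holds the cells in this state, and its inhibitor Id2 marks the conventional dendritic cells in its place. In the lung they are a rare population, studied for their part in virus infection and in tolerance to inhaled material.

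The data were single-cell RNA counts of whole lung from 2 male C57Bl/6J mice aged 3 months, with 1 mouse in each of the groups control and fibrosis. Per the labels, a dose of 100 µg of titanium dioxide, a particle used as control dust, or of crocidolite asbestos, a fibre that scars the lung, went into the trachea and the lungs were taken on day 14. Both particles stand in the protocol of both samples, so the libraries are named here by their labels alone. Both groups share the strain, the sex, the age, the dose, the time, enzyme digestion with dispase and DNase I, lysis of red cells and droplet capture with 3′ V2 chemistry.

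The deposited cells numbered 8280 and 7173, with 36632591 and 38090308 UMIs in all, and 8026 and 6945 cells passed the mitochondrial limit. Members held 246978 UMIs among control cells and 148133 among fibrosis cells, from 1532 to 8077 per cell with a median of 3720.5, and from 2091 to 11921 with a median of 3171. The median number of genes detected per member was 1453.5 and 1256.5, and the median mitochondrial share 4.59% and 5.01%. The libraries had 89 cell barcodes in common, 2 of them among the members. Each group was 1 mouse, so no difference between the libraries has a replicate check and no test or p-value is given. Levels are CPM, the UMIs of a gene summed over the members of a library per 1000000 UMIs of those members, with exact Poisson 95% intervals. Ratios are log2 of fibrosis CPM over control CPM with 0.5 UMI added to each sum. Their 95% intervals, in brackets, and those of shares of cells (Clopper-Pearson) cover counting error only.

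Of 27998 genes, 2604 had 20 or more UMIs over the members of both libraries and were compared. By a rule of size, 104 of them (3.99%) were 2-fold or more higher in the fibrosis library and 172 (6.61%) were 2-fold or more lower, and the median log2 ratio was -0.06. The same ratio was also computed in 9 other cell gates (B, T and NK cells, type 1 and type 2 dendritic cells, classical monocytes, alveolar macrophages, alveolar type 2 (AT2) cells and endothelial cells), and its median over these gates stands beside a gene as "other gates". Some members carried many UMIs of another cell type. These are called mixed members here: 14 control and 6 fibrosis cells with 20 or more UMIs of a neutrophil list, 50 or more of an AT2 list, 10 or more of an NK list or 10 or more of Lyz2. The limits were set after the values had been seen. Without them 48 and 34 members and 1842 compared genes were left, of which 55 (2.99%) were 2-fold higher and 101 (5.48%) 2-fold lower.

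Transcription factors of these cells that the rule did not use were present in most members. All 102 members carried Irf8, the transcription factor needed by type 1 and plasmacytoid dendritic cells, and 61 of 62 and 38 of 40 carried Tcf4. Bcl11a, a zinc finger factor that acts upstream of Tcf4, was found in 50 of 62 and 33 of 40. Some single genes of other types had no UMI in any member: Xcr1 of type 1 dendritic cells, Fscn1 of migratory dendritic cells and Inmt of fibroblasts. Of the 5 genes on each of these lists, 3, 3 and 2 had a UMI in some member. As summed lists, type 1 dendritic markers had 24 and 20 UMIs in control and fibrosis members, B cell markers 26 and 8 (21 and 6 of them Cd79b), macrophage markers 2 and 7 and T cell markers 1 and 0. Migratory dendritic markers had 0 and 3 UMIs, fibroblast markers 0 and 2, NK cell markers 5 and 19 and endothelial markers 58 and 32. Monocyte markers had 517 and 463, of which Lyz2 held 465 and 447. The B cell, macrophage and T cell lists each hold an excluding gene of the rule (Cd79a, C1qa and Cd3e), so their sums were lowered by the choice of cells. Of the 5 T cell markers, 3 were in the files. Type 2 dendritic markers had 202 and 111 UMIs, with all 5 genes present. Transitional dendritic markers had 316 and 143, of which Crip1 held 296 and 131, Axl 0 and 2 and Cd5 none. The part of such cells in the results was not tested. On clustering all cells, which gave 39 clusters and did not leave out the rule's own genes, all 62 control members and 39 of 40 fibrosis members lay in 1 cluster of 72 control and 47 fibrosis cells, and the member outside it was a mixed one. Taking a count of 0 as a floor of 3 counts, no UMI over a library allows a share of up to 4.84% of control and 7.5% of fibrosis members with a UMI.

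Siglech, a sialic acid-binding lectin that signals through the adaptor Tyrobp, had 2 to 16 UMIs (median 8) per control member and 2 to 13 UMIs (median 6) per fibrosis member. The members held 80.9% of all Siglech UMIs of the control library and 70.4% of those of the fibrosis library. At the edge of the rule, 4 control and 4 fibrosis members had exactly 2 Siglech UMIs, with Irf8 medians of 9 and 6.5 UMIs. Just outside, 7 and 10 cells had 1 Siglech UMI and met all else, with Irf8 medians of 6 and 7. A further 19 control and 14 fibrosis cells had 2 or more Siglech UMIs but failed elsewhere, and 11 and 5 of them through a UMI of C1qa, a macrophage gene.

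**Figure D1:**
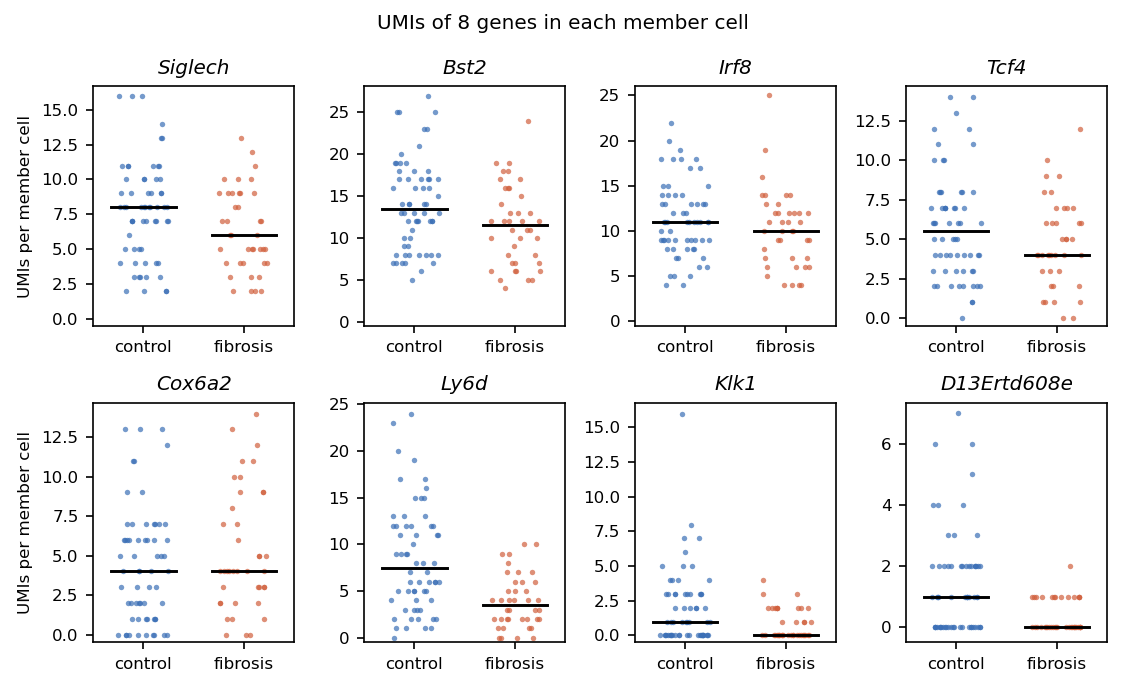
UMIs of 8 genes in each member cell, 1 point per cell, with the median as a black line, for the 62 control and 40 fibrosis members. The values of all 8 genes overlapped between the libraries. The highest values in fibrosis members were 10 UMIs of Ly6d, 4 of Klk1 and 2 of D13Ertd608e, against 24, 16 and 7 in control members. The control members were more in number and had more UMIs per cell at the median (3720.5 against 3171).

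Outside the rule's own genes, the 30 genes with the highest fold over all other cells gave the members' profile, taking for each gene the library where its fold was lower. The first of them was D13Ertd608e, at 705 times the CPM of the other cells, followed by Klk1b27, a tissue kallikrein (417 times), Atp2a1, the calcium pump of fast muscle (408 times), Cd300c, an activating surface receptor (195 times), and Dntt, the polymerase that adds bases at the joints of antigen receptor genes (185 times). Irf8 stood at 19.2 times, Spib at 19.1 times and Tcf4 at 17.4 times. All 30 had a higher CPM in the members than in the type 1 dendritic, type 2 dendritic and B cell gates in both libraries, with and without the mixed members. The other cells of the fold include these gates, so the choice of the 30 itself favoured this outcome.

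Dntt had 31 and 18 UMIs in the members and none in the type 1 dendritic, type 2 dendritic or B cell gates of either library. Lag3, a receptor that binds MHC class II, stood at 292 and 236 CPM in control and fibrosis members, against 16.4 and 9.57 CPM in type 2 dendritic cells. Pacsin1, an endocytic adaptor, had 219 and 236 CPM in members and 8.59 and 9.10 CPM in B cells. Kmo, kynurenine 3-monooxygenase of tryptophan breakdown, was shared in part with other dendritic cells, with 162 and 162 CPM in members beside 58.9 and 47.3 CPM in type 1 dendritic cells and 38.9 and 70.2 CPM in type 2 dendritic cells.

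Ranking by the lower fold of the 2 libraries favours genes that are alike in both. Low counts, such as 16 and 10 UMIs of Havcr1, also give wide intervals. With these limits, the intervals of 29 of the 30 ratios between the libraries covered 0, and the median ratio of the 30 was -0.05. The exception was D13Ertd608e, with 88 and 15 UMIs in control and fibrosis members, or 356 CPM (286 to 439) in control members and 101 CPM (56.7 to 167) in fibrosis members. It was found in 38 of 62 and 14 of 40 members, and its ratio was -1.78 (-2.71 to -1.02), and -1.60 (-2.58 to -0.80) without the mixed members. The polymerase Dntt, in contrast, stood at 126 and 122 CPM, a ratio of -0.03 (-0.97 to 0.84).

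**Figure D2:**
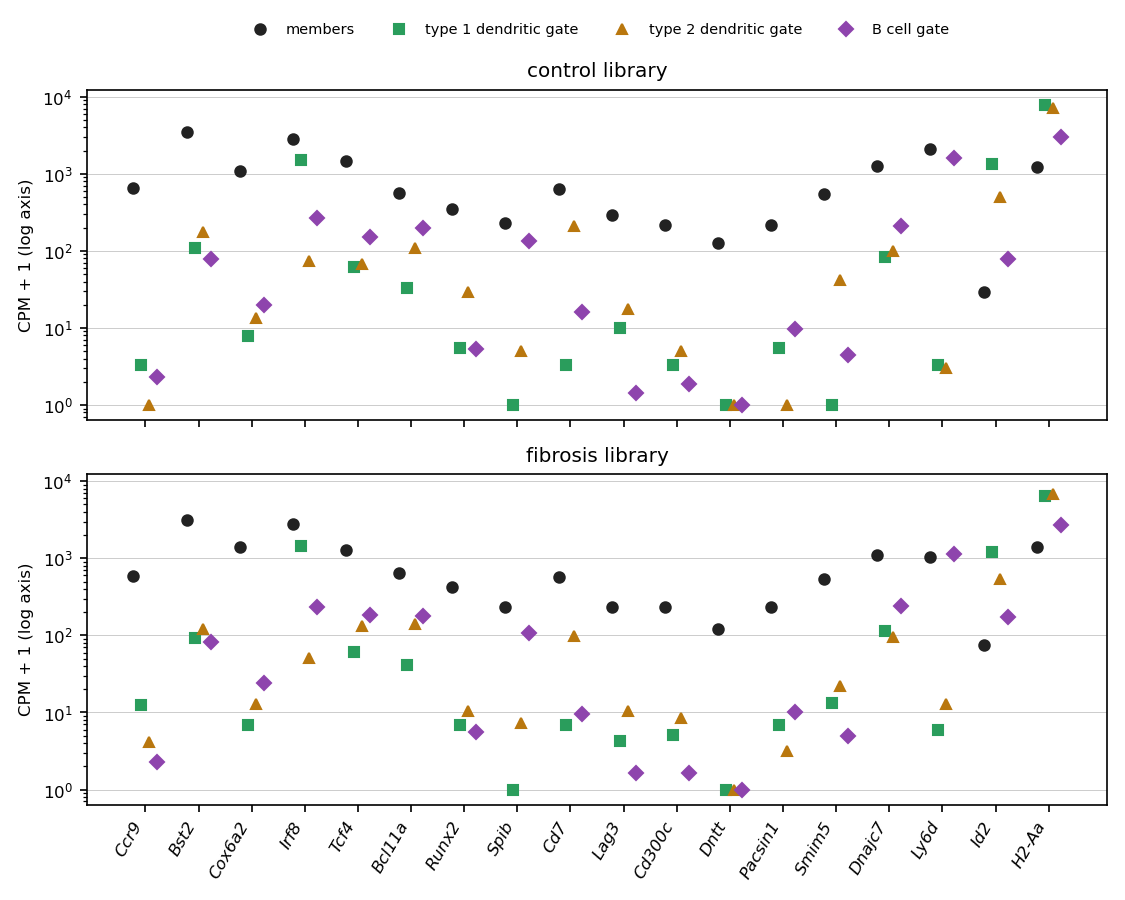
Levels (CPM + 1, log axis) of 18 genes in the members and in the type 1 dendritic, type 2 dendritic and B cell gates, control library above and fibrosis library below. In both panels the members lie above the other gates from Ccr9 to Dnajc7, close to the B cells for Ly6d, and below all 3 gates for Id2 and H2-Aa. H2-Aa was part of the rule of the type 2 dendritic gate, and Ccr9, Bst2, Cox6a2 and Ly6d of the members' rule.

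Because these genes share their restriction to the members and Tcf4 binds E-boxes, the 250 bases before their RefSeq start sites (GRCm38.p6) were searched for the E-box CAGGTG on both strands (CACCTG is the same site read from the other strand). The bases below run 5′ to 3′ on the gene's own strand, all lie upstream of an annotated start site of the gene, and capitals mark the motif. Shown are Siglech, Ccr9 and Klk1 of the rule and Cd300c of the leading genes, which hold the motif, and Klk1b27, the paralogue of Klk1, which does not.
Siglech (chr7:55767934-55768183, plus strand): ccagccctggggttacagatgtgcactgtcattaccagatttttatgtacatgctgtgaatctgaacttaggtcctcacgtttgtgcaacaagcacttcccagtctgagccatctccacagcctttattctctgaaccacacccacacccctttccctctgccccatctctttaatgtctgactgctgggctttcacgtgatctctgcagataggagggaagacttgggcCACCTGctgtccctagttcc
Ccr9 (chr9:123766961-123767210, plus strand): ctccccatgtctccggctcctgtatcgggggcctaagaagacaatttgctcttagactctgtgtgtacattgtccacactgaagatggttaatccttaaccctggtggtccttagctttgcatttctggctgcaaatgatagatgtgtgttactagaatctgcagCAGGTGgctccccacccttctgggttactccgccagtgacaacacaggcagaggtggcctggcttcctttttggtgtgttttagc
Klk1 (chr7:44225110-44225359, plus strand): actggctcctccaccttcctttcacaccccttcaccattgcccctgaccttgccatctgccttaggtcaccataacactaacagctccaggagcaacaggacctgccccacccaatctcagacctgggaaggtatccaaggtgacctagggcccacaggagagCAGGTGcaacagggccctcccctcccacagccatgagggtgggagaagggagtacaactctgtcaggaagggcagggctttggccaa
Cd300c (chr11:114960508-114960757, minus strand): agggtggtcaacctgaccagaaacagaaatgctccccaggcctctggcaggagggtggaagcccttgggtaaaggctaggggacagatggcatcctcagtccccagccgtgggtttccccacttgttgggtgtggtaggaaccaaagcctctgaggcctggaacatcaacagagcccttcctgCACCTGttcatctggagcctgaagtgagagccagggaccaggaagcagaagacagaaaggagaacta
Klk1b27 (chr7:44052040-44052289, plus strand): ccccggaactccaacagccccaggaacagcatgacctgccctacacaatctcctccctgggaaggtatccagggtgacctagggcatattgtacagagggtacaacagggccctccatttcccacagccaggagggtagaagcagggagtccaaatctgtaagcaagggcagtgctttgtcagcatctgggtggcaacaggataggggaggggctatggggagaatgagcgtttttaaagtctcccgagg
The motif began at -20 in Siglech, -85 in Ccr9, -87 in Klk1 and -67 in Cd300c, counted from the start site. Of the rule's 7 genes (Siglech and the 6 supporting), 5 had a window in the table and 4 of these held the motif (the fourth was Bst2, at -205). Of the 30 leading genes, 23 had a window that could be used, in 32 windows, and 7 windows (21.9%) held the motif, against 5657 of 32851 windows of all genes (17.2%). A match describes the letters of the window and is no evidence of binding.

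Among the transcription factors of the plasmacytoid state, those that build it were high and those of conventional dendritic cells were low. Tcf4 had 0 to 14 UMIs (median 5.5) per control member and 0 to 12 UMIs (median 4) per fibrosis member, or 1458 CPM (1311 to 1616) in control members and 1276 CPM (1100.5 to 1471) in fibrosis members. In B cells it stood at 149.8 and 181 CPM and in type 1 dendritic cells at 61.2 and 59.7 CPM. Irf8 had 2826 and 2754 CPM in members beside 1523 and 1441 CPM in type 1 dendritic cells, which also need it, and at most 73.7 CPM in type 2 dendritic cells. Runx2, a factor known for the exit of these cells from bone marrow, stood at 348 and 425 CPM, against at most 28.7 CPM in the type 1 dendritic, type 2 dendritic and B cell gates. Spib, an Ets factor shared with B cells, had 227 and 229.5 CPM in members, 135 and 107 CPM in B cells and no UMI in type 1 dendritic cells. Zeb2, which restrains Id2, stood at 324 and 378 CPM, and Irf7 at 194 and 149 CPM.

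Id2 had 7 and 11 UMIs in all members, or 28.3 and 74.3 CPM, against 1350.3 and 1219 CPM in type 1 and 499.5 and 546 CPM in type 2 dendritic cells. Zbtb46 and Batf3, factors of conventional dendritic cells, had no UMI in any member. Of the 18 listed factors, 13 were compared: none was 2-fold higher in the fibrosis library and Klf4 (16 and 4 UMIs) was 2-fold lower, with a median ratio of -0.04. The Klf4 interval covered 0, at -1.14 (-3.30 to 0.37). Tcf4, at -0.19 (-0.45 to 0.07), Irf8, at -0.04 (-0.22 to 0.14), and Bcl11a, at 0.17 (-0.22 to 0.55), all had intervals that covered 0 and lay within 2-fold. Spi1 (PU.1), a myeloid factor, had 73 and 26 UMIs and a ratio of -0.73 (-1.46 to -0.09), and -0.43 (-1.58 to 0.56) without the mixed members.

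The surface receptors included the antigens by which these cells are sorted. Bst2, the virus tether known as PDCA-1, had 5 to 27 UMIs (median 13.5) per control and 4 to 24 UMIs (median 11.5) per fibrosis member, and the lowest value was above 0 in both libraries. Its level was 3523 CPM (3292 to 3765) in control members and 3105 CPM (2828 to 3402) in fibrosis members, against 176 and 119 CPM in type 2 dendritic cells. The signalling adaptor Tyrobp stood at 5968 and 5495 CPM and the Fc receptor gamma chain Fcer1g at 1571 and 1127 CPM. Lair1, an inhibitory collagen receptor, had 489.9 and 574 CPM in members, and at most 21.3 CPM in the type 1 dendritic, type 2 dendritic and B cell gates. Ly6c2 was found in 57 of 62 and 34 of 40 members, at 1818 and 1337 CPM.

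Klra17 (Ly49Q), a receptor of MHC class I that marks mature plasmacytoid cells, was found in 19 of 62 and 15 of 40 members. Cd4 was found in 16 of 62 and 8 of 40 and Cd8a in 10 of 62 and 2 of 40, and 1 control member and no fibrosis member had both. Neither had over 3.32 CPM in the type 1 dendritic, type 2 dendritic or B cell gates. Cd209a and Clec10a, lectins of type 2 dendritic cells, were also present, Cd209a in 26 of 62 and 15 of 40 members and Clec10a in 21 of 62 and 18 of 40. With every cell thinned to 1000 UMIs, Cd209a was found in 24.2% and 20% of control and fibrosis members. In B cells, which should lack it, the shares were 0.369% and 0.721%. In type 2 dendritic cells they were 68.5% and 61.5%, but that gate was itself chosen on Cd209a, so these shares describe the choice. Median depths before thinning were 3720.5 and 3171 UMIs in members, 5002 and 5187 in type 2 dendritic cells, 6339 and 6948 in type 1 dendritic cells, and 2071 and 2785.5 in B cells. Mgl2, another lectin of type 2 dendritic cells, had 3 and 1 UMIs in members.

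Of the 20 listed surface genes, 18 were compared, none was 2-fold higher in the fibrosis library, and Ly6d and Ly6a were 2-fold lower, with a list median of -0.21. Ly6d, an antigen of early lymphoid progenitors that also belongs to the rule, had 0 to 24 UMIs (median 7.5) per control member and 0 to 10 UMIs (median 3.5) per fibrosis member. Its level was 2122 CPM (1944 to 2311) in control members and 1053 CPM (894 to 1232) in fibrosis members, and the ratio -1.01 (-1.28 to -0.75) beside -0.26 in the other gates and -0.89 (-1.19 to -0.61) without the mixed members. In B cells, which also express it, Ly6d stood at 1586 and 1153 CPM. Ly6a (Sca-1) had 0 to 17 UMIs (median 2) per control and 0 to 10 UMIs (median 1) per fibrosis member, a ratio of -1.22 (-1.70 to -0.78) beside -0.55 in the other gates and -1.05 (-1.62 to -0.54) without the mixed members. The single-cell ranges of both genes overlapped between the libraries. Ly6a, Ly6c2 and Ly6d belong to a family of related genes, so their counts also depend on how similar reads were assigned.

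Other genes restricted to these cells included the muscle form of a respiratory chain subunit and tissue kallikreins. Cox6a2, a cytochrome c oxidase subunit otherwise known from heart and skeletal muscle, had 0 to 13 UMIs (median 4) per control and 0 to 14 UMIs (median 4) per fibrosis member. Its level was 1101 CPM (974 to 1240.3) in control members and 1411 CPM (1226 to 1616) in fibrosis members, a ratio of 0.36 (0.09 to 0.62) beside 0.31 in the other gates. Klk1 stood at 510.2 CPM (425 to 607) in control members and 223 CPM (153 to 313) in fibrosis members and was found in 37 of 62 and 17 of 40 members. Its ratio was -1.18 (-1.79 to -0.63), and -1.03 (-1.73 to -0.42) without the mixed members. The members held 93.3% and 71.7% of all Klk1 UMIs of their libraries.

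Klk1b27 was found in 21 of 62 and 15 of 40 members, at 174 and 149 CPM, a ratio of -0.21 (-1.04 to 0.54). Klk1 and Klk1b27 were found together in 18 control and 8 fibrosis members. The 2 kallikreins are close paralogues, so the split of reads between them is uncertain. Of the 22 listed genes of this group, 19 were compared, none was 2-fold higher in the fibrosis library and Klk1 was 2-fold lower, with a list median of -0.10. Atp1b1, a sodium pump subunit, stood at 595 and 459 CPM, Pltp, a phospholipid transfer protein, at 482 and 324 CPM, and the lysosomal protease Ctsl at 486 and 446 CPM. Pltp was lower in the fibrosis library, at -0.56 (-1.09 to -0.08), where the other gates had 0.26. Rpgrip1, a cilium protein of photoreceptors, stood at 328 and 203 CPM with a ratio of -0.68 (-1.35 to -0.07).

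The pathway from nucleic acid sensing to interferon was measured mainly through its chaperones and adaptors. Unc93b1, which carries the endosomal receptors out of the endoplasmic reticulum, was found in 52 of 62 and 30 of 40 members at 441 and 378 CPM, against 256 and 181 CPM in B cells. Tlr7 was found in 8 of 62 and 12 of 40 members, never with more than 1 UMI. It stood at 32.4 CPM (14.0 to 63.8) in control members and 81.0 CPM (41.9 to 142) in fibrosis members, and its ratio was 1.29 (-0.09 to 2.82) beside -0.55 in the other gates, with an interval that covered 0. Without the mixed members 5 and 8 UMIs were left, too few to be compared. Tlr9 had no UMI in any member, which by the same floor of 3 counts allows a level of up to 12.1 and 20.3 CPM. Myd88, the adaptor of these receptors, had 16 and 7 UMIs, Slc15a4, a lysosomal transporter needed for the response, 28 and 18 UMIs, and Irf5 31 and 18 UMIs.

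Blnk and Syk, which relay signals from receptors coupled to Tyrobp and Fcer1g, stood at 142 and 169 CPM and at 178 and 135 CPM. Ptprs, a receptor phosphatase that holds plasmacytoid cells back, had 17 and 19 UMIs, with at most 22.4 CPM in the type 1 dendritic, type 2 dendritic and B cell gates against 68.8 and 128 CPM in members. Of the 23 listed genes, 15 were compared, Tlr7 was 2-fold higher in the fibrosis library, none was 2-fold lower, and the median ratio was -0.03.

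The interferon genes that were looked for had no UMI. All 9 of the list (Ifna1, Ifna2, Ifna4, Ifna5, Ifna13, Ifnab, Ifnb1, Ifnl2 and Ifnl3) were at 0 in both libraries' members, and 17 of the 24 listed ligands were at 0, Il6, Il12b, Il10, Cxcl9 and Cxcl10 among them. Tgfb1 was the only ligand of the list found in more than 10 members of a library, in 42 of 62 and 19 of 40, at 287 and 209 CPM and a ratio of -0.45 (-1.12 to 0.17) beside -0.88 in the other gates. Tnf had 4 and 5 UMIs. Ccl5, with 6 and 18 UMIs, was 2-fold higher in the fibrosis library, at 2.25 (0.93 to 3.94), but its 18 fibrosis UMIs lay in 3 members, and its ratio without the mixed members was -1.17 (-7.18 to 1.54).

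The chains of the interferon receptor were present, and several genes that interferon induces had few UMIs. Ifnar1 and Ifnar2, the chains of the type I interferon receptor, stood at 101 and 101 CPM and at 202 and 277 CPM, and Ifnar2 at no more than 115 CPM in the type 1 dendritic, type 2 dendritic and B cell gates. Isg15 had 10 and 2 UMIs, Rtp4 6 and 1 UMIs, Ifit3 1 and 0 UMIs, and Rsad2 and Isg20 none, whereas Ifi27l2a had 220 and 93 UMIs and a ratio of -0.50 (-0.87 to -0.15). Of the 28 listed genes, 10 were compared and none was 2-fold higher in the fibrosis library. The median ratio of the list was -0.53 with all members and -0.04 over the 8 genes compared without the mixed ones. For Ifitm3, a membrane protein that blocks virus entry, the ratio was -0.97 (-1.61 to -0.41) with and 0.27 (-1.01 to 1.48) without the mixed members.

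For homing, the members carried Ccr9, the receptor of the gut and thymus chemokine Ccl25, in 51 of 62 and 31 of 40 cells and at 648 CPM (551 to 756) in control members and 587 CPM (470.4 to 724) in fibrosis members. Selplg, a selectin ligand, stood at 757 and 547 CPM. Cxcr3, a receptor of interferon-induced chemokines, had 10 and 6 UMIs. Ccr7 and S1pr1, which guide cells into and out of lymph nodes, had 1 UMI and no UMI over all members, whereas Ccr7 was found in 46.7% and 38.9% of B cells.

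S1pr4, a sphingosine phosphate receptor, was found in 12 of 62 and 14 of 40 members at 56.7 CPM (31.0 to 95.1) in control members and 149 CPM (93.1 to 225) in fibrosis members. It was 2-fold higher in the fibrosis library, at 1.37 (0.36 to 2.47) beside -0.42 in the other gates, and at 1.16 (0.06 to 2.32) without the mixed members. Of the 17 listed genes with a row of their own, 11 were compared, S1pr4 was the one 2-fold higher, none was 2-fold lower, and the median was -0.17.

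MHC class II was present at a lower level than in the type 1 dendritic and B cell gates. H2-Aa was found in 48 of 62 and 35 of 40 members at 1219 and 1404 CPM, beside 7871 and 6508 CPM in type 1 dendritic, 7200.0 and 6944 CPM in type 2 dendritic and 3045 and 2669 CPM in B cells. The type 2 dendritic gate itself required UMIs of H2-Aa, so its H2-Aa level partly describes that choice. Cd74, the invariant chain, stood at 5061 and 4529.7 CPM in members and at 13683 and 10656 CPM in B cells. Class I was higher in members than in the type 1 dendritic gate, the only gate set beside it here. H2-K1 stood at 1381 and 1296 CPM in members and at 786 and 685 CPM in type 1 dendritic cells. B2m stood at 4012.5 and 3578 CPM in members and at 2349 and 1941 CPM in type 1 dendritic cells. The costimulatory genes Cd40 and Cd80 had no UMI in any member and Cd86 had 2 and 0 UMIs. Of the 20 listed genes, 12 were compared and none differed 2-fold, with a median of -0.16. H2-Eb1 was 0.45 (0.05 to 0.83) and H2-D1 -0.45 (-0.68 to -0.23), beside 0.33 and -0.37 in the other gates.

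Flt3, the receptor of the growth factor that drives dendritic cell development, was found in 16 of 62 and 14 of 40 members at 105 and 101 CPM, with a ratio of -0.04 (-1.08 to 0.91). Il7r, the lymphoid interleukin-7 receptor, was found in 32 of 62 and 20 of 40 at 202 and 223 CPM, against 10.7 and 16.9 CPM in B cells. Csf2rb2, the mouse-specific interleukin-3 receptor beta chain, had 25 and 14 UMIs, Lifr 30 and 13 UMIs and Il3ra 3 and 7 UMIs. Csf1r, the macrophage growth factor receptor, had 30 and 5 UMIs and was 2-fold lower in the fibrosis library, at -1.73 (-3.57 to -0.47) beside -0.13 in the other gates. Without the mixed members its ratio was -1.41 (-7.40 to 1.16) on fewer than 20 UMIs. It was the one gene past 2-fold among 11 compared of 14 listed, and the median was -0.04.

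Of the 25 listed genes of the secretory pathway, 9 had a UMI in at least 50% of members in both libraries. Sec61b, a subunit of the channel into the endoplasmic reticulum, was found in 59 of 62 and 40 of 40 at 1348 and 1276 CPM, against 428 and 445 CPM in B cells and 628 and 669 CPM in type 1 dendritic cells. Xbp1, the factor that expands this compartment, was found in 39 of 62 and 28 of 40 at 292 and 412 CPM, a ratio of 0.50 (-0.02 to 1.01). Spcs2, of the signal peptidase, stood at 316 and 284 CPM and the chaperone cofactor Manf at 299.6 and 338 CPM. All 25 listed genes were compared: Ssr3, of the translocon-associated complex, was 2-fold higher in the fibrosis library with 14 and 22 UMIs and a ratio of 1.37 (0.36 to 2.47), none was 2-fold lower, and the median was -0.08. Its partner Ssr2 was lower, with 52 and 17 UMIs and -0.85 (-1.76 to -0.06), and -1.25 (-2.40 to -0.32) without the mixed members. Calr, a calcium-binding chaperone, had 103 and 34 UMIs and -0.85 (-1.47 to -0.29).

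Genes shared with lymphocytes were present in part. Cd7, a surface molecule of T and NK cells, was found in 50 of 62 and 32 of 40 members at 628 and 574 CPM, and the members held 11.8% and 11.9% of the Cd7 UMIs of their libraries. Dntt was found in 21 of 62 and 15 of 40. Rag2, of antigen receptor rearrangement, and Blk and Pax5, of B cells, had no UMI in any member, and Rag1 had 1 UMI in all. Cd79b, a chain of the B cell receptor, had 21 and 6 UMIs, or 85.0 and 40.5 CPM beside 1418 and 972 CPM in B cells. Of the 14 listed genes in the files, 6 were compared, Ly6d was the one past 2-fold and the median was -0.08. Mzb1, a chaperone of plasma cells and also of B cells, was found in 22 of 62 and 9 of 40 members.

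Few transcripts of the cell cycle were captured in the members. Mki67 and Top2a had 1 UMI each in the control and none in the fibrosis members, Pcna had 9 and 9 UMIs and Stmn1 6 and 3 UMIs, the latter at 24.3 and 20.3 CPM beside 297 and 346 CPM in type 1 dendritic cells. Only H2afz of the 15 listed genes reached 20 UMIs, with a ratio of -0.09 (-0.58 to 0.39).

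Of the 20 glycolysis and respiratory chain genes, 16 were compared, none was 2-fold higher in the fibrosis library, Pkm and Pgam1 were 2-fold lower and the median was -0.26. Pkm, a pyruvate kinase, was found in 36 of 62 and 11 of 40 members, at 251 CPM (192 to 322) in control members and 74.3 CPM (37.1 to 133) in fibrosis members. Its ratio was -1.70 (-2.83 to -0.82) beside -0.39 in the other gates, and -1.79 (-3.42 to -0.62) without the mixed members. Pgam1 had 22 and 6 UMIs and an interval that covered 0, at -1.05 (-2.73 to 0.21). Pgk1, with too few UMIs to be compared, had 2 and 8 UMIs and a ratio of 2.50 (0.41 to 6.01), and the other gates stood at 2.47. Cox6a1, the common form of the subunit of which Cox6a2 is the muscle form, stood at 486 and 398 CPM, with a ratio of -0.28 (-0.76 to 0.17).

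Of the 16 stress and immediate-early genes, which dissociation of tissue is known to induce, 11 were compared, none was 2-fold higher in the fibrosis library and Fos, Junb, Dusp1 and Nfkbia were 2-fold lower, with a median of -0.42. Nfkbia, the inhibitor of NF-kappaB, had 69 and 18 UMIs, a ratio of -1.17 (-2.04 to -0.44) beside -0.17 in the other gates and -1.22 (-2.37 to -0.28) without the mixed members. Junb had 72 and 19 UMIs and -1.16 (-2.00 to -0.44), and -0.69 (-1.77 to 0.23) without the mixed members. Dusp1 had 24 and 5 UMIs and -1.42 (-3.27 to -0.11), and Fos 17 and 4 UMIs and -1.22 (-3.38 to 0.27). Of the 8 genes compared without the mixed members 1 was 2-fold lower, and the median was -0.29.

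**Figure D3:**
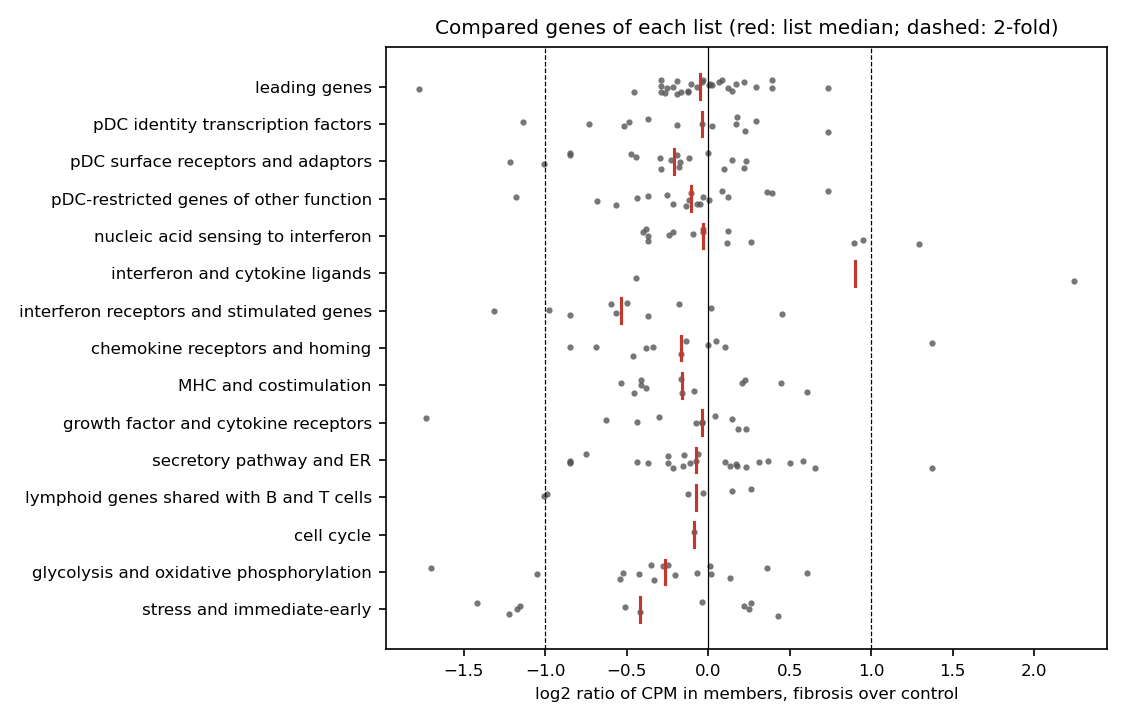
Log2 ratio of CPM in the members, fibrosis over control, for the compared genes of the leading set and of 14 gene lists, 1 point per gene, red line the list's median, dashed lines 2-fold. Medians of lists with 2 or more compared genes lie between -0.26 and -0.03 (all genes -0.06) except those of interferon receptors and stimulated genes (-0.53), of stress and immediate-early genes (-0.42) and of the ligands, of which 2 were compared.

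Many listed genes were detected in only part of the members, and how far the sampling of UMIs accounts for this was not tested. Of 267 listed genes with a row in the files, 70 had a UMI in at least 50% of members in both libraries, and 19 did when every member was thinned to 1000 UMIs. Irf8 was found in 100% of members before thinning and in 95.2% and 95% after it, and Tcf4 in 98.4% and 95% of control and fibrosis members before and 71.0% and 67.5% after. Dntt and Ly6d were found together in 21 control and 13 fibrosis members, beside 20.7 and 13.5 had the genes been independent. Cd209a and Clec10a were found together in 7 and 6 members, beside 8.81 and 6.75. Cd209a and Cd209d were found together in 12 and 8, beside 10.1 and 7.5. Klk1 and D13Ertd608e shared 27 and 9 members, beside 22.7 and 5.95. These joint counts were taken before thinning and so also depend on depth. They describe the members and set no classes among them.

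The share of members among all kept cells was 0.772% (0.593% to 0.989%) in the control library and 0.576% (0.412% to 0.783%) in the fibrosis library. The log2 ratio of the shares was -0.42 (-1.03 to 0.17), so the difference was within counting error. Among cells with a UMI of Ptprc, the pan-leukocyte antigen CD45, the shares were 0.857% (44 of 5136) and 0.758% (30 of 3956). The libraries began at different depths, with a lowest cell of 1460 and 1915 UMIs. With the floor of 1915 UMIs in both, the shares were 0.911% (60 of 6586) and 0.576%, a log2 ratio of -0.66 (-1.28 to -0.06) whose interval no longer covered 0.

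Many of the widest ratios between the libraries rested on the mixed members. In the control library 8 members held 3581 of the 3707 UMIs of the neutrophil list (96.6%), from 68 to 912 each, and no other control member had more than 10. In the fibrosis library 1 member held 80 of the 123. Of the 2540 UMIs of the AT2 list in fibrosis members, 2291 (90.2%) lay in 1 member of 10558 UMIs that also had 4 of Siglech and 10 of Irf8. Lyz2, of macrophages, monocytes, neutrophils and AT2 cells, reached 10 UMIs in 9 control and 5 fibrosis members.

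All 5 genes of the neutrophil list and all 5 of the AT2 list had a UMI among the members. Sftpc was present in 61 of 62 control and 40 of 40 fibrosis members, with 0 to 9 UMIs (median 4.5) in control members, and also in 97.3% and 99.3% of B cells. Scgb1a1, the secretory protein of club cells, had a UMI in every member and in every B cell of both libraries. The per-cell sum of the club and ciliated list had a median of 17 UMIs in control members and 16 in control B cells, and of 10.5 and 12 in the fibrosis library. No doublet caller was run, and the part of these cells in a ratio was not tested beyond leaving them out.

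**Figure D4:**
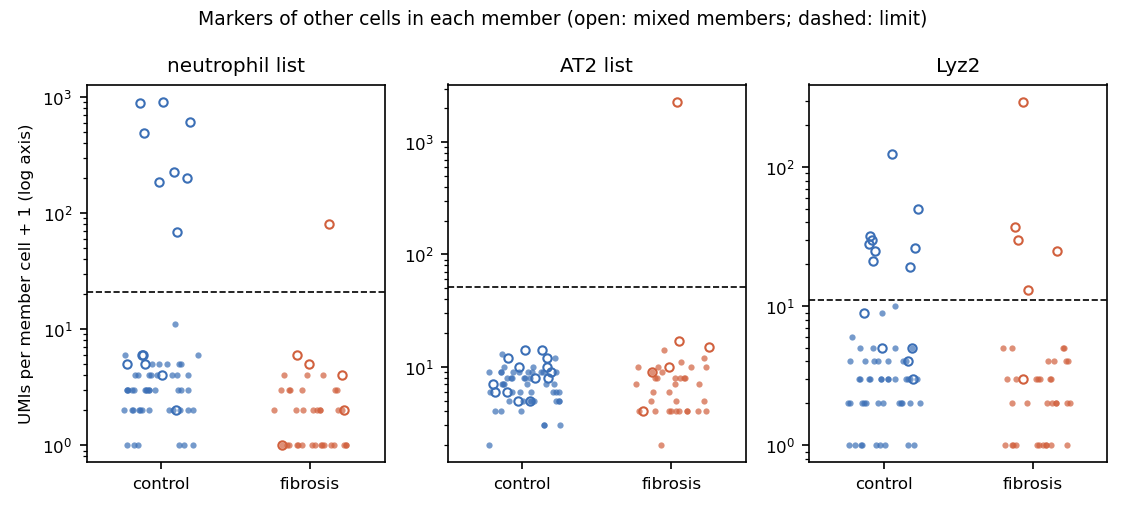
UMIs + 1 (log axis) of the neutrophil list, the AT2 list and Lyz2 in each member, 62 control and 40 fibrosis cells, with mixed members as open circles and the limits as dashed lines. The 8 control members and the 1 fibrosis member above the neutrophil limit and the 1 fibrosis member above the AT2 limit stand clear of the others.

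At the ends of the ratio, many genes shifted when these cells were left out. S100a8, S100a9, Retnlg, Sftpc and Sftpb are on the lists that set the mixed members, so their shift follows from that choice. S100a8 had 1859 and 61 UMIs and a ratio of -4.18 (-4.58 to -3.82), and -1.16 (-2.26 to -0.26) without the mixed members. S100a9 moved from -3.94 to -0.97, and Retnlg, with 272 and 1 UMIs, from -6.77 (-12.66 to -4.86) to -1.41 (-7.40 to 1.16). At the other end Sftpc had 251 and 2247 UMIs, with ratios of 3.90 with and 0.34 (0.02 to 0.66) without the mixed members, Sftpa1 3.32 and 0.53, Sftpb 3.31 and 0.03, and Cxcl15 3.42 and 0.16. Without them Wfdc17 had 7 and 5 UMIs and a ratio of 0.26 (-1.78 to 2.09), Lcn2 3 and 6 UMIs and 1.60 (-0.52 to 4.33), and Elovl1 7 and 3 UMIs and -0.40 (-3.10 to 1.61), on the other side of 0 from all members but with intervals that covered 0. Of the 30 different genes at the ends, before or after subtraction of the other gates, 15 had an interval that covered 0 without the mixed members, and 6, Mmp9 and Stfa2l1 among them, had 3 UMIs or fewer in each library and so no ratio.

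Another group at the ends differed alike in the median of the other gates. AY036118 had 10 and 86 UMIs, with a ratio of 3.78 (2.89 to 4.95) beside 3.68 in the other gates. Gm10263 had 53 and 6 UMIs, with -2.30 (-3.91 to -1.19) beside -2.10. Retnla, a secreted protein known from type 2 inflammation, had no UMI in control and 20 in fibrosis members, and the other gates differed by 6.54. The cause of these shared differences was not tested, and several of the genes have near-identical copies. After subtraction of the other gates, 83 of 2580 genes (3.22%) were 2-fold higher in the fibrosis members and 143 (5.54%) 2-fold lower.

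When the rule for the ends was applied again without the mixed members, a choice made after their values were seen, few UMIs stood behind each gene. S100a4, a calcium-binding protein of motile cells, had 27 UMIs in 14 of 48 control members and none in 34 fibrosis members, and -1.38 in the other gates. Vav1, a guanine nucleotide exchange factor of blood cells, had 22 and 2 UMIs in 19 and 2 members, a ratio of -2.47 (-5.89 to -0.73). Prmt1, an arginine methyltransferase, had 19 and 2 UMIs, with a ratio of -2.26 (-5.69 to -0.49), and Ssb, the La protein that binds small RNA, 27 and 4 with a ratio of -1.91 (-4.03 to -0.53). Cnp, known from myelin, had 68 and 11 UMIs in 35 and 8 members with a ratio of -1.87 (-2.99 to -0.99), and Fdps, of the sterol pathway, 47 and 11 with a ratio of -1.34 (-2.49 to -0.42) where the other gates had 0.44.

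In the other direction, Etnk1, an ethanolamine kinase, had 6 and 18 UMIs with a ratio of 2.21 (0.89 to 3.91), Tep1 of the vault particle 7 and 20 with a ratio of 2.15 (0.92 to 3.70), Ddx17, an RNA helicase, 8 and 18 with a ratio of 1.83 (0.60 to 3.28) and Hvcn1, the proton channel of phagocytes and B cells, 14 and 24 with a ratio of 1.46 (0.47 to 2.55). Their ratios in the other gates were between 0.04 and 0.21. After subtraction of the other gates, 44 of 1825 genes (2.41%) were 2-fold higher and 90 (4.93%) 2-fold lower. Without a second mouse in either group the spread between animals of these values is unknown.

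**Figure D5:**
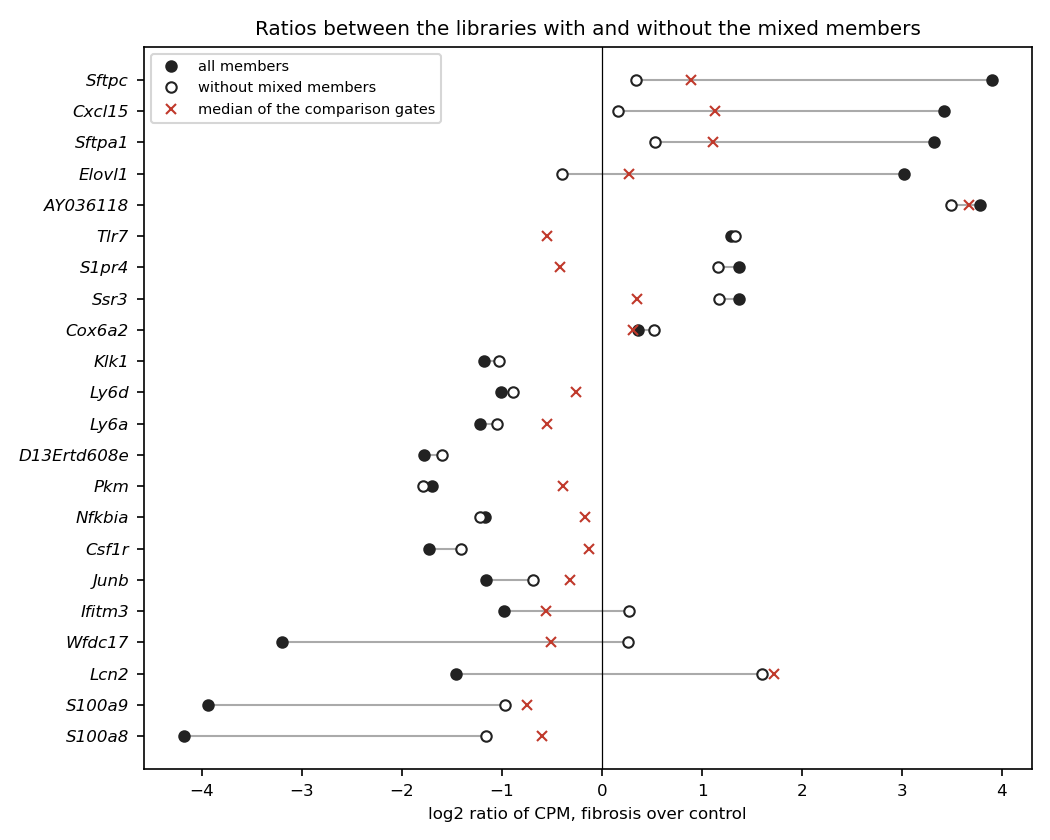
Log2 ratio of CPM, fibrosis over control, for 22 genes with all members (filled), without the mixed members (open) and as the median of the other gates (crosses; absent where fewer than 3 gates had 10 UMIs). Sftpc, Cxcl15, Sftpa1, Elovl1, Wfdc17, Lcn2, S100a9 and S100a8 shift widely, AY036118 lies with the other gates, and Pkm, Nfkbia, D13Ertd608e and S1pr4 keep their side in the members with intervals that leave out 0. Sftpc, S100a9 and S100a8 are on the lists that set the mixed members.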

How the data were processed

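Whole lungs of 1 control and 1 fibrosis mouse were measured by droplet RNA sequencing. The authors deposited raw UMI counts per gene and cell, made with bcl2fastq and Cell Ranger 1.3 on mm10, per the submitters' processing notes. Filters behind the deposited cells and the treatment of doublets are not given in the sources used here, and no doublet caller was run. Here cells were kept at 10% mitochondrial UMIs or less and the members gated on marker counts. Their counts were summed per library (Python 3.11.15, numpy 2.4.6, pandas 2.3.3) and given exact intervals at 95% (scipy 1.17.1). With 1 mouse a group no test across samples was possible. The interval calculation was tested on simulated Poisson counts, the model that the intervals assume. Clumping of UMIs in single cells was not simulated, so the test does not cover it. Clusters came from scanpy 1.11.5 (2000 variable genes, 30 components, 15 neighbours, Leiden resolution 1). Comparison gates used fixed marker genes, with Cd209a and H2-Aa for type 2 dendritic cells, and all required no UMI of Siglech.

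Genes named are those of the rule and of 14 gene lists, the 30 leading genes and the 12 highest and 12 lowest ratios, before and after subtraction of the other gates, among genes with 20 UMIs and an interval not covering 0. The members and lists were chosen with earlier results of these data known. Of the listed entries, 8 matched no single row and were not used. Results on a few genes are not reported here.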

Additional observations from a re-analysis of the deposited data

How the results depend on the processing

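No paired analysis was possible because each group held 1 mouse, and for the same reason no replicate could be left out. With a mitochondrial limit of 5% the fibrosis share was 0.392%. The count of genes 2-fold higher and lower was 324 and 428 of 4549 with a filter of 10 UMIs, 21 and 44 of 999 with 50 UMIs, and 7 and 15 of 290 in the 8 and 7 members with under 2 UMIs of every other blood-lineage list. Without the mixed members it was 55 and 101, and 44 and 90 after subtraction of the other gates. Thinning to 1000 UMIs left 19 listed genes in at least 50% of members. Among the 30 end genes, the ratios given that changed sign without the mixed members were Lcn2 1.60 (3 and 6 UMIs), Elovl1 -0.40 (7 and 3) and Wfdc17 0.26 (7 and 5). Listed genes outside the ends, such as Ccl5 and Ifitm3, also changed sign. No ratio was given to a gene with 3 UMIs or fewer in each library, which left out 6 of the 30 end genes there and 23 in the 8 and 7 members. Without the tenth of members with most UMIs Elovl1 was -0.078, on 8 and 4 UMIs. The share's log2 ratio was negative under every alternative gate, floor and denominator run, and its interval left out 0 only where both libraries began at 1915 UMIs. Depth limits genes under 20 UMIs, which were left out of the main set of compared genes. Ratios printed for some of them rest on few UMIs.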
